A study of Zea mays with 12 samples.

Results

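The genes fie1 (GRMZM2G118205) and fie2 (GRMZM2G148924) encode the maize versions of FERTILIZATION-INDEPENDENT ENDOSPERM, and they are 2 of the 34348 genes in the expression tables. They were chosen by identifier, without use of their measured values. FIE is a WD40-repeat protein of Polycomb repressive complex 2, which also holds an Enhancer of zeste histone methyltransferase, a Su(z)12-type protein with a VEFS domain and an MSI1-type WD40 protein, and which methylates lysine 27 of histone H3. Maize fie1 is known as an endosperm gene expressed from the maternal allele, whereas fie2 is known as the broadly expressed copy. In Arabidopsis, loss of FIE allows endosperm to start developing without fertilization.

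Transcript levels were measured by poly(A) RNA-seq of whole endosperm taken 16 days after pollination from self-pollinated field plants of the maize inbred W22. The groups were WT, nkd1-Ds and nkd2-Ds, with 4 libraries each, described by the series as biological replicates. The genes nkd1 and nkd2 encode related zinc-finger transcription factors needed for normal aleurone, and Ds is a transposable element, so each mutant carries a labelled Ds allele of 1 of them. The tables give 1 level per gene in RPKM, here reads per kilobase of gene and per megaread of a library factor. That factor was not the total of reads recovered for the library. With 1 level per gene, maternal and paternal transcripts of fie1 and fie2 cannot be told apart. In whole tissue, fewer cells of a type cannot be told apart from less RNA per cell.

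The libraries held 35.3 to 48.0 megareads each, as recovered from the values. The nkd1 transcript averaged 49.2 RPKM in WT, 35.1 RPKM in nkd2-Ds and 12.8 RPKM in libraries labelled nkd1-Ds. The nkd2 transcript averaged 19.5 RPKM in WT, 1.15 RPKM in nkd2-Ds and 1.10 RPKM where the label was nkd1-Ds, so those libraries were low in both transcripts and every direction given for them is that of libraries labelled nkd1-Ds. Zein storage protein genes took 42.1 to 48.3% of the reads of WT libraries, 36.8 to 49.7% of those of nkd2-Ds and 27.3 to 29.1% of those of nkd1-Ds. Replicate 1 of nkd2-Ds stood apart from the others of its group, with a chi-square per gene of 48.5 to 164 against them, and replicates 3 and 4 gave 11.04 against each other, while replicate 2 was at 47.2 from replicate 4. The WT libraries fell into pairs, at 8.72 between replicates 1 and 2, at 9.09 between 3 and 4 and at 33.0 to 46.2 across the pairs. Embryo markers summed to 15.3 to 16.7 RPKM in WT, 16.6 to 20.2 RPKM in nkd1-Ds and 34.1 to 65.4 RPKM in nkd2-Ds over 4 matched genes, none at 0 in every library. Markers of starchy endosperm were abundant in all 12 libraries, at 50010 to 109000 RPKM in sum.

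The level of fie1 was 29.3, 27.8, 23.9 and 26.9 RPKM in the WT libraries, in order of replicate number. It was 29.8, 25.5, 23.9 and 23.8 RPKM in nkd1-Ds, and 24.8, 26.8, 24.9 and 21.7 RPKM in nkd2-Ds. The 3 groups overlapped throughout, and the highest and the lowest of the 12 values were in nkd1-Ds replicate 1 and nkd2-Ds replicate 4. These levels rested on 1273 to 1990 reads and placed fie1 between the 89.8th and the 92.6th percentile of all genes in a library.

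The level of fie2 in WT was 5.07, 5.28, 5.14 and 5.29 RPKM. It was 3.47, 4.22, 4.02 and 4.56 RPKM in nkd1-Ds, and 4.51, 4.86, 3.95 and 3.35 RPKM in nkd2-Ds. All 8 mutant libraries lay below all 4 WT libraries, while nkd1-Ds and nkd2-Ds overlapped each other. Of all genes tested, 26.6% had every nkd1-Ds library below WT and 14.5% had every nkd2-Ds library below WT. The share with both at once was not counted. The reads behind these levels numbered 236 to 386 per library, and fie2 ranked between the 52.1st and the 62.9th percentile. fie1 and fie2 are related in sequence, and whether reads shared by the copies were split, dropped or counted for both was not given in the sources used here.

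**Figure D1:**
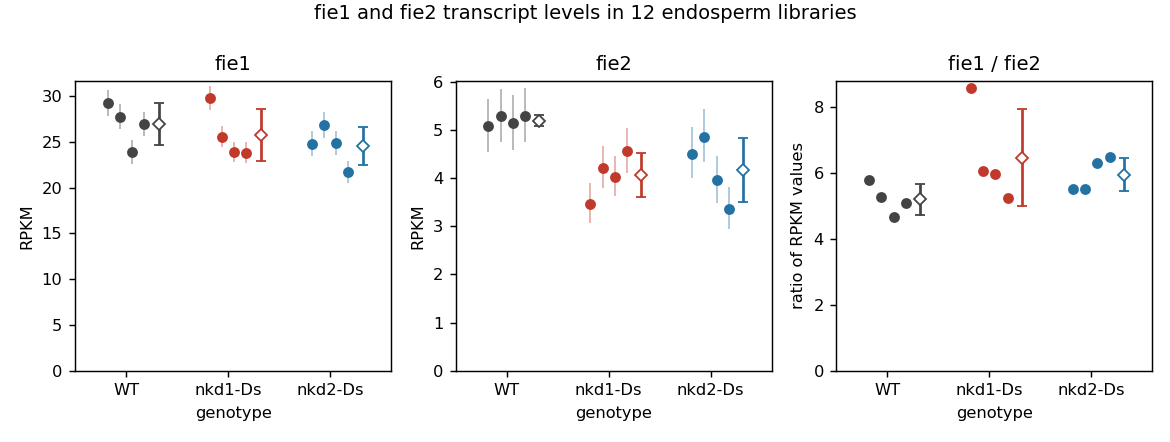
Level of fie1 and fie2 (RPKM) and their ratio in each of 12 libraries, grouped by genotype; filled points are libraries in order of replicate, thin lines are 95% exact Poisson intervals of the reads behind them, and open diamonds with bars are the group mean ± SD (n = 4). The fie1 groups overlap, all 8 mutant fie2 values lie under the lowest WT value of 5.07 RPKM, and the highest ratio is 8.59 in nkd1-Ds replicate 1. Of all genes tested, 26.6% had every nkd1-Ds library below WT and 14.5% had every nkd2-Ds library below WT.

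fie1 was not called in any of the 3 comparisons of genotypes. Its mean was 26.96 ± 2.26 RPKM for WT, 25.7 ± 2.80 RPKM for nkd1-Ds and 24.6 ± 2.12 RPKM for nkd2-Ds (SD, n = 4 each). On the log2(RPKM + 1) scale, the difference of nkd1-Ds from WT was -0.07 ± 0.09 (SE), with a 95% interval of -0.25 to 0.12 and an adjusted p of 0.544 (limma across 26706 genes, two-sided, Benjamini-Hochberg adjustment). The difference of nkd2-Ds from WT was -0.13, with an interval of -0.32 to 0.06 and an adjusted p of 0.306 in the same limma fit, and that of nkd2-Ds from nkd1-Ds was -0.07, with an adjusted p of 0.584. As folds on that scale, the intervals against WT together reach from 0.802 to 1.09 of the WT value, under the authors' scaling of libraries.

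fie2 was lower in nkd1-Ds than in WT. Its mean was 5.19 ± 0.107 RPKM in WT and 4.07 ± 0.456 RPKM in nkd1-Ds (SD, n = 4 each), which is 78.3% of the WT level. The difference was -0.29 ± 0.10 (SE) on the log2(RPKM + 1) scale, with a 95% interval of -0.50 to -0.09 and an adjusted p of 0.0185 (limma). In this comparison 55.7% of all genes tested were called, 29.2% as lower and 26.5% as higher, and 51.1% had groups that did not overlap, so 1 called member of 2 is close to the background share. The size of the fie2 difference was also near the middle of all genes, since 50.2% of genes tested had a smaller absolute difference, against 12.8% for fie1. Without nkd1-Ds replicate 1, which held the lowest fie2 value of that group, the difference was -0.24 with an adjusted p of 0.0573 (limma).

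In nkd2-Ds, fie2 averaged 4.17 ± 0.661 RPKM (SD, n = 4), or 80.3% of WT, and this did not pass the test. The difference was -0.27 ± 0.10 (SE), with an interval of -0.48 to -0.06 and an adjusted p of 0.0541 (limma). Of all genes tested, 25.5% were called in this comparison, 13.6% as lower and 12% as higher, and 26.4% had groups that did not overlap, 14.5% with nkd2-Ds as the lower group, as fie2 had. Leaving out nkd2-Ds replicate 1, the library that stood apart, gave -0.30 with an adjusted p of 0.0496, and leaving out replicate 2 gave -0.33 with an adjusted p of 0.0255 (limma). Leaving out replicate 3 gave -0.25 with an adjusted p of 0.114, leaving out replicate 4 gave -0.19 with an adjusted p of 0.148, and no call was made without any 1 of the WT libraries. The call therefore lay at the edge of the threshold. Both mutant groups were compared with the same 4 WT libraries, so their differences are not independent. The direct comparison of nkd2-Ds with nkd1-Ds gave 0.02 for fie2, with an interval of -0.18 to 0.23 and an adjusted p of 0.861 (limma), where 41.8% of all genes tested were called, 20.2% as lower and 21.6% as higher.

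The differences of both genes depended on how libraries were scaled. The authors' values divide reads by a factor per library, which was 27.3 to 31.1 megareads for WT and 27.8 to 30.9 megareads for nkd2-Ds but 34.3 to 40.5 megareads for nkd1-Ds. The totals of recovered reads were 39.8 to 48.0, 35.3 to 47.4 and 37.6 to 40.6 megareads in the same order. Scaling by total reads moved the median difference of all genes tested in nkd1-Ds from -0.02 to 0.43, and it turned fie1 to a called rise of 0.46 with an adjusted p of 0.00344 (limma) and fie2 to 0.16 with an adjusted p of 0.239. Relative to that median, fie2 was at -0.28 under the authors' scaling and at -0.27 under total reads, and fie1 was at -0.05 and at 0.03. Scaling by reads outside zein genes put fie2 at -0.16 with an adjusted p of 0.172 and fie1 at 0.09, or -0.28 and -0.02 relative to the median. In nkd2-Ds, total-reads scaling put fie2 at -0.13 with an adjusted p of 0.460 (limma) and fie1 at 0.03. Scaling shifts all genes nearly alike, so the values relative to the median restate 1 result and do not show that it is stable to scaling.

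**Figure D2:**
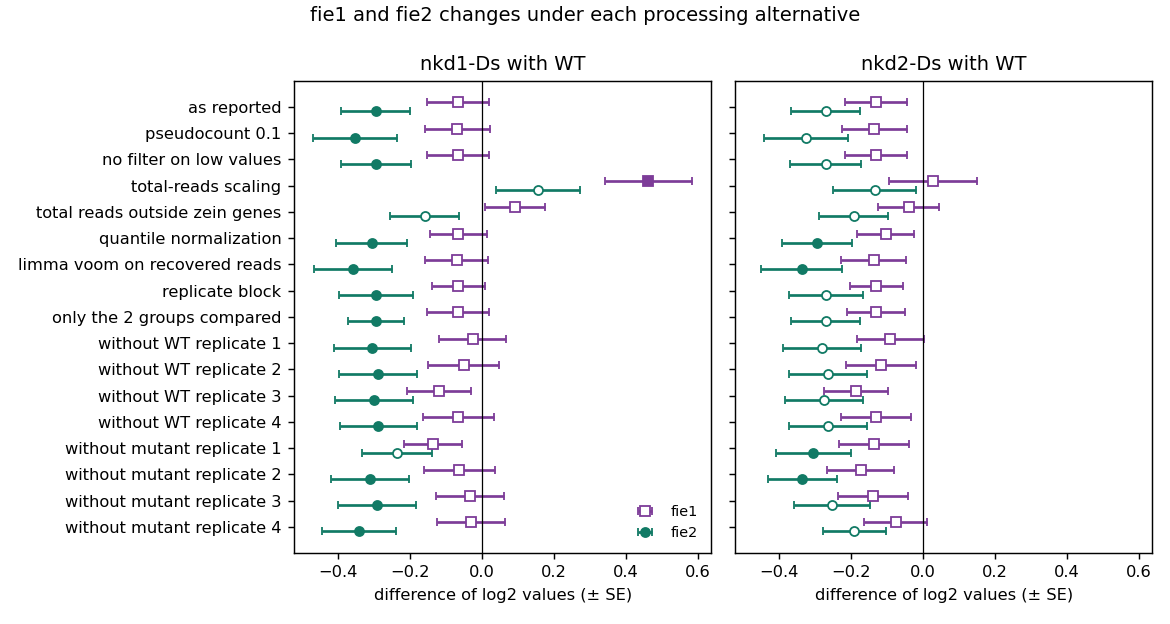
Difference of fie1 (squares) and fie2 (circles) from WT in nkd1-Ds and nkd2-Ds, as log2 values ± SE, under each processing alternative; a filled symbol has an adjusted p under 0.05 in limma. In nkd1-Ds, fie2 lies at -0.29 as reported and at 0.16 with total-reads scaling, and fie1 at -0.07 and at 0.46.

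A ratio within a library does not depend on the scaling of libraries. The level of fie1 was 5.77, 5.26, 4.65 and 5.10 times that of fie2 in the WT libraries, per kilobase. It was 8.59, 6.05, 5.95 and 5.22 times that of fie2 in nkd1-Ds, and 5.50, 5.52, 6.30 and 6.48 times in nkd2-Ds. Replicate 1 of nkd1-Ds, which had the highest fie1 level of all libraries and the second lowest fie2 level, gave the highest ratio, and all groups overlapped.

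The mean log2 ratio was 2.37 ± 0.13 for WT, 2.66 ± 0.31 for nkd1-Ds and 2.57 ± 0.12 for nkd2-Ds (SD, n = 4 each). The difference from WT was 0.29 in nkd1-Ds (exact permutation test, two-sided, p = 0.0857, 0.171 adjusted over 3 comparisons) and 0.20 in nkd2-Ds (exact permutation p = 0.114, adjusted 0.171). The smallest p that 4 against 4 libraries allow is 0.0286, so after adjustment over 3 comparisons 1 comparison alone could not fall under 0.05. Neither ratio difference passed this test, which with 4 libraries per group could not settle whether the ratio changed. Without nkd1-Ds replicate 1 the difference in nkd1-Ds was 0.15. fie1 made up 82.3 to 85.2% of the summed fie1 and fie2 level in WT, 83.9 to 89.6% in nkd1-Ds and 84.6 to 86.6% in nkd2-Ds. The sum itself was 32.2 ± 2.26 RPKM in WT, 29.8 ± 2.41 RPKM in nkd1-Ds and 28.7 ± 2.74 RPKM in nkd2-Ds.

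Variation among libraries of a group was smaller for fie2 than for fie1 in WT, larger in nkd2-Ds and near equal in nkd1-Ds. These differences in spread were not tested. The WT coefficient of variation of fie2 was 2.06%, lower than read counting alone would give on average, since the variance was 0.146 of the counting variance. Of 2765 genes with a WT level within 1.2-fold of that of fie2, 0.868% varied less, and their median coefficient was 10.1%. In the mutants fie2 varied by 11.2% in nkd1-Ds and 15.8% in nkd2-Ds, near the medians of 10.8% and 12.3% for genes of like level. For fie1 the coefficient was 8.38% among WT libraries, 10.9% for nkd1-Ds and 8.62% for nkd2-Ds, against medians of 6.71%, 7.35% and 7.67% for genes of like level. The closeness of the 4 WT values of fie2 was singled out after they were seen. The fit used 1 spread estimate per gene over all 12 libraries, not the WT spread alone.

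By symbol, 10 genes of Polycomb repressive complex 2 were matched, fie1 and fie2 included, and all 10 passed the minimum of 1 RPKM. In nkd1-Ds 2 were called higher and 3 lower, near the 55.7% called among all genes tested, with a median difference of -0.05 against -0.02. In nkd2-Ds 0 were called higher and 1 lower (limma), against 25.5% called among all genes, with a median of -0.11 against -0.01. At an unadjusted p under 0.05, 1 was higher and 4 were lower in nkd2-Ds, and limma voom on recovered reads called 1 higher and 2 lower. Between the mutants, nkd2-Ds had 2 called higher than nkd1-Ds, mez1 and nfc103, and 3 lower, mez3, nfc101 and nfc104, against 41.8% called among all genes. The nfc103 call between the mutants held in only 6 of 16 processing alternatives, and its groups overlapped. Under total-reads scaling 8 were called higher and 0 lower in nkd1-Ds, where 68.9% of all genes were called and 61.5% were higher, and 0 were called in nkd2-Ds, where 16.7% of all genes were.

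Ordered by WT level per kilobase, the 10 genes were nfc103 (34.4 RPKM), mez1 (29.0), nfc102 (28.4), nfc101 (27.1), fie1 (26.96), vef101 (14.5), mez2 (10.8), fie2 (5.19), mez3 (3.25) and nfc104 (1.40). fie1 therefore lay among the most abundant subunit genes and overlapped nfc101, nfc102 and mez1 among the WT libraries, while fie2 lay between mez2 and mez3 with no overlap with either. The nfc genes encode MSI1-type WD40 proteins, which bind histones and also belong to other chromatin complexes, and vef101 encodes the VEFS-domain subunit.

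The catalytic subunit genes mez1, mez2 and mez3, maize versions of Enhancer of zeste, differed in direction. mez1, which like fie1 is known as maternally expressed in endosperm, was 25.9, 27.9, 29.7 and 32.6 RPKM in WT, 18.5, 21.0, 21.6 and 21.6 RPKM in nkd1-Ds and 26.8, 26.7, 25.1 and 23.2 RPKM in nkd2-Ds. All nkd1-Ds libraries lay below the other 8, while 51.1% of all genes tested had nkd1-Ds and WT groups that did not overlap. mez1 fell in nkd1-Ds by 0.47 on the log2 scale (SE 0.08, adjusted p = 0.000203, limma), was 0.06 with total-reads scaling, and was -0.18 in nkd2-Ds with an adjusted p of 0.108.

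mez3 was 3.15, 3.39, 3.22 and 3.23 RPKM in WT, 4.53, 4.79, 4.49 and 5.02 RPKM in nkd1-Ds and 3.25, 3.39, 2.94 and 3.03 RPKM in nkd2-Ds. It was above all other libraries in nkd1-Ds, where it rose by 0.43 (SE 0.07, adjusted p = 0.000111, limma), and this call held under each of 16 alternatives. In nkd2-Ds it was at -0.03, and the direct difference of nkd2-Ds from nkd1-Ds was -0.46 with an adjusted p of 0.000128 (limma). mez2 averaged 10.8 RPKM in WT, 11.95 RPKM in nkd1-Ds and 12.2 RPKM in nkd2-Ds, with adjusted p of 0.0596 and 0.0528 (limma). Both mutant groups lay above WT for mez2 in every library. Such separation from WT, in either direction, was common for mez2, mez3 and other genes alike. It held for 51.1% of all genes tested in nkd1-Ds and 26.4% in nkd2-Ds.

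**Figure D3:**
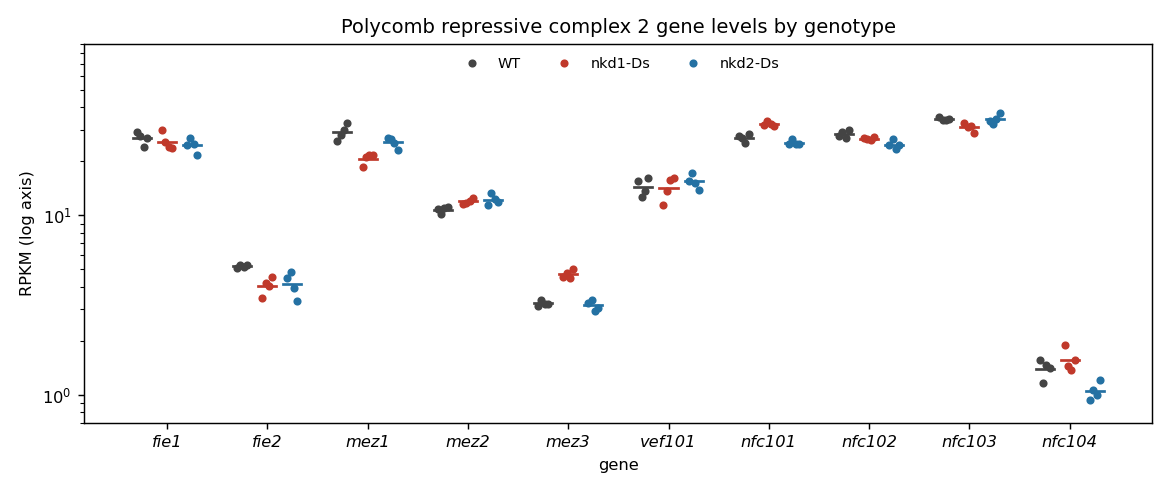
RPKM (log axis) of the 10 genes of Polycomb repressive complex 2 in each library, with WT, nkd1-Ds and nkd2-Ds side by side; points are libraries and short lines are group means. fie1 lies near 26.96 RPKM with nfc101, nfc102 and mez1, and fie2 near 5.19 RPKM in WT. The nkd1-Ds points stand below WT for mez1, fie2 and nfc103 and above it for mez2, mez3 and nfc101. Of all genes tested, 51.1% had nkd1-Ds and WT groups that did not overlap.

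Among the other subunit genes, nfc101 rose in nkd1-Ds from 27.1 to 32.2 RPKM (0.24, adjusted p = 0.00156, limma). nfc103 fell from 34.4 to 30.9 RPKM (-0.15, adjusted p = 0.0338, limma), but this call was lost in 10 of 16 alternatives. nfc102 was the gene called in nkd2-Ds, where it fell from 28.4 to 24.8 RPKM (-0.19, adjusted p = 0.0192, limma), a call lost in 4 of 16. vef101 was 14.5 RPKM in WT, 14.2 RPKM in nkd1-Ds and 15.4 RPKM in nkd2-Ds and was not called. Of the further Polycomb list, jmj13 was the only gene matched; its Arabidopsis namesake removes methyl groups from lysine 27 of histone H3. It fell from 4.59 RPKM in WT to 2.602 RPKM in nkd1-Ds (-0.63, adjusted p = 8.57e-06) and to 3.45 RPKM in nkd2-Ds (-0.33, adjusted p = 0.00457, limma), and with total-reads scaling neither was called.

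fie1, fie2 and mez1 also belong to a list of 6 matched genes drawn up as imprinted endosperm genes. Whether each was imprinted at 16 days was not measured here. In nkd1-Ds 2 of the 6 were called higher and 2 lower, fie2 and mez1, and in nkd2-Ds 2 were called higher and 0 lower (limma), although 2 were lower at an unadjusted p under 0.05 and voom called 1 lower. These counts are near the shares of all genes called, 55.7% and 25.5%. The genes called higher were the same in both comparisons, nrp1 and r1. nrp1 averaged 189.9 RPKM in WT, 300.4 RPKM in nkd1-Ds (0.66, adjusted p = 0.000125) and 240.5 RPKM in nkd2-Ds (0.33, adjusted p = 0.0309, limma), and the latter call was lost in 7 of 16 alternatives. r1, a regulator of anthocyanin synthesis, averaged 0.0690 RPKM in WT, 21.1 RPKM in nkd1-Ds and 7.87 RPKM in nkd2-Ds. meg1, known from the basal transfer layer, varied widely and was not called.

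Genes of DNA methylation, the mark whose removal in the central cell is known to accompany maternal expression of such genes, gave 3 higher and 3 lower of 9 tested in nkd1-Ds and 0 of 9 in nkd2-Ds (limma), where 2 were lower at an unadjusted p under 0.05 and voom called 0. Among all genes tested 55.7% and 25.5% were called. The symbol dmt101 matched more than 1 identifier and counts on both sides in nkd1-Ds. GRMZM2G334041 was called higher (0.305, adjusted p = 0.016) and GRMZM2G333997 lower (-0.594, adjusted p = 0.0168, limma). mop1, an RNA-dependent RNA polymerase of RNA-directed DNA methylation, fell from 8.38 to 6.36 RPKM in nkd1-Ds (-0.35, adjusted p = 0.000628, limma). met2, a chromomethylase, rose from 1.85 to 3.003 RPKM (0.48, adjusted p = 0.0116, limma). With total-reads scaling 6 of the 9 were higher and 0 lower in nkd1-Ds, against 61.5% of all genes higher, and mop1 was at 0.13.

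The genes most like fie1 and fie2 across the 12 libraries were listed by Pearson r on log2(RPKM + 1) among 1707 tested genes with a symbol, as a description in which all points share the same libraries. For fie1 these were nfa101 (r = 0.835), GF14-6 (0.788), HRGP (0.787), GF14-12 (0.770) and RSZ21 (0.766). For fie2 they were SRP1A (0.919), psiP (0.907), RSZ28 (0.903), RELK3 (0.883) and Pds (0.882). The copies did not share a gene among these 5, and the r between fie1 and fie2 themselves was 0.321.

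After group means were removed, r between fie1 and fie2 was 0.088. nfa101 was again the gene most like fie1 (r = 0.906), followed by HD2b, a plant-specific histone deacetylase (0.861), fmi1(pki) (0.849), Cystatin (0.822) and chiA (0.822). For fie2 the order was shpl1 (0.888), mbd111, a methyl-CpG-binding domain protein (0.876), PIS (0.864), zpu1, the starch-debranching pullulanase (0.863), and AN13 (0.842).

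fie1 lies on chromosome 4 and fie2 on chromosome 10 in the RefSeq annotation of NAM-5.0, which was used for gene order only. The gene orp1 follows fie1 directly, and orp2 is 4 genes after fie2; orp1 and orp2 encode the duplicate beta subunits of tryptophan synthase. orp1 averaged 22.0 ± 1.255 RPKM in WT, 15.1 ± 0.963 RPKM in nkd1-Ds and 17.1 ± 0.672 RPKM in nkd2-Ds (SD, n = 4 each). orp2 averaged 30.9 ± 1.32 RPKM in WT, 21.9 ± 1.78 RPKM in nkd1-Ds and 21.2 ± 2.76 RPKM in nkd2-Ds (SD, n = 4 each). Both fell in both comparisons with WT, orp1 by 0.51 and by 0.34 and orp2 by 0.48 and by 0.53 on the log2 scale, all with adjusted p of 0.00114 or less (limma). Among all genes tested, 29.2% were called lower in nkd1-Ds and 13.6% in nkd2-Ds. With total-reads scaling orp1 was at 0.01 and orp2 at 0.04 in nkd1-Ds. In nkd2-Ds that scaling put orp1 at -0.185 (adjusted p = 0.229) and orp2 at -0.372 (adjusted p = 0.00531, limma). Thus, under the authors' scaling, fie1 lay beside a gene that fell in both mutants without being called itself.

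Of the 10 nearest tested genes that could be placed, 5 on each side, 8 were called around fie1 and 8 around fie2 in nkd1-Ds. In nkd2-Ds 2 were called around fie1 and 7 around fie2, 2 of the 7 as higher and 5 as lower. Over all placed and tested genes 59.5% were called in nkd1-Ds and 25.2% in nkd2-Ds. Taking 25 placed and tested genes on each side, 28.0% were called around fie1 and 50% around fie2 in nkd2-Ds, and 64.0% and 60.0% in nkd1-Ds, so that the share around fie2 in nkd2-Ds was the one far from that over all placed genes. These windows, and the shares by chromosome, were added after neighbouring genes had been seen.

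On chromosome 10, which also carries nkd2, 37.5% of 815 placed and tested genes were called in nkd2-Ds, against 21.2 to 28.6% on the other 9 chromosomes. In nkd1-Ds the share on chromosome 10 was 61.7%, against 56.7 to 61.9% on the others. In gene order nkd2 lay 319 placed and tested genes after fie2. Bins of 50 genes along chromosome 10 ranged from 18.0 to 64.0% called in nkd2-Ds, with 52.0% in each bin next to fie2 and 34.0% in the bin that holds the place of nkd2. The fie2 value in nkd2-Ds thus stands among neighbours of which a larger share was called than in the table as a whole, and the part of gene position in the fie2 result was not tested.

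**Figure D4:**
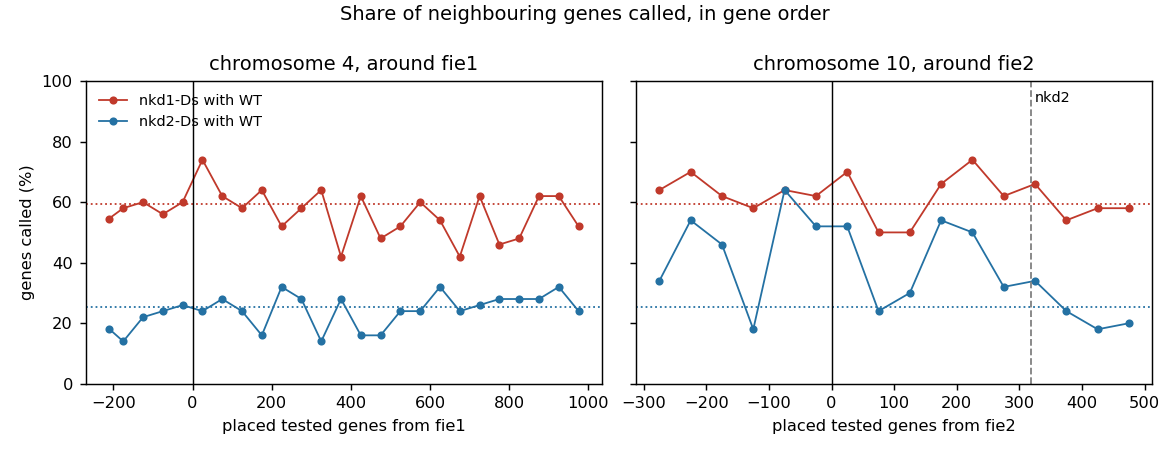
Percent of placed and tested genes called against WT in bins of 50 genes, by number of genes from fie1 on chromosome 4 and from fie2 on chromosome 10; red is nkd1-Ds, blue is nkd2-Ds, dotted lines are the shares over all placed genes (59.5% and 25.2%), and the dashed line marks nkd2. In nkd2-Ds the bins next to fie2 stand at 52.0%, and those next to fie1 at 24.0 and 26.0%.

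Markers of other cell types moved with some of the groups, also in nkd1-Ds, where fie2 was called. The 8 aleurone markers include nkd1 and nkd2 themselves, so the other 6 were summed apart, at 105.3 to 146.6 RPKM in nkd1-Ds, 152.5 to 170.8 RPKM in WT and 185.7 to 342.8 RPKM in nkd2-Ds. With nkd1 and nkd2 the sums were 118.5 to 162 RPKM in nkd1-Ds, 219 to 243 RPKM in WT and 222 to 379 RPKM in nkd2-Ds. The 6 did not move together, since ole17, an oleosin, was 31.7 RPKM in WT and 5.30 RPKM in nkd1-Ds, while dek1, a calpain needed for aleurone fate, was 12 and 16.5 RPKM.

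Starchy endosperm markers summed to 50010 to 58180 RPKM in nkd1-Ds, against 73300 to 87240 RPKM in WT and 72930 to 109000 RPKM in nkd2-Ds, over 11 genes. Most of this was 3 zein genes, and the other 8 summed to 7421 to 8780 RPKM in nkd1-Ds, 9669 to 10230 RPKM in WT and 8085 to 9064 RPKM in nkd2-Ds. In nkd1-Ds 1 of the 10 tested was called higher and 5 lower (limma), and o2, the storage protein gene regulator, was 371.8 RPKM against 264.5 RPKM in WT.

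Basal transfer layer and embryo-surrounding markers ranged widely in sum within every group, from 26.0 to 344 RPKM in nkd2-Ds, over 9 genes. Among them mrp1, a regulator of transfer cell genes, was 11.02 to 13.7 RPKM in nkd1-Ds, against 1.275 to 2.33 RPKM in WT and 2.04 to 2.98 RPKM in nkd2-Ds, with nkd1-Ds above all other libraries. Of all genes tested, 51.1% had nkd1-Ds and WT groups that did not overlap. The list as a whole did not follow mrp1. In nkd1-Ds 1 of the 7 tested was called higher, 0 were called lower and 6 were not called (limma). The median difference of the 7 was -0.26, against -0.02 for all genes. Pericarp and green tissue markers summed to 1.99 to 2.46 RPKM in nkd1-Ds, 1.248 to 1.76 RPKM in WT and 1.54 to 2.13 RPKM in nkd2-Ds over 3 genes, with nkd1-Ds above WT in every library. These 3 were low and did not move together. From WT to nkd1-Ds, psah1 went from 0.238 to 1.115 RPKM and p1 from 0.123 to 0.475 RPKM, while psad1 went from 1.152 to 0.58 RPKM. The embryo sum of nkd2-Ds was mostly glb1, a storage globulin, at 34.7 RPKM against 6.02 RPKM in WT, and lg3, a knotted-type homeobox gene, was 2.64 RPKM in WT, 6.71 RPKM in nkd1-Ds and 3.27 RPKM in nkd2-Ds. The embryo markers did not move together. In WT, nkd1-Ds and nkd2-Ds, wox2a stayed level at 6.66, 6.40 and 6.26 RPKM, and rab17 was at 0.600, 0.325 and 3.44 RPKM. No listed gene was at 0 in every library, and the part of any of these tissues in the fie1 and fie2 values was not tested.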

How the data were processed

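Each of 12 deposited tables held 1 value per gene for 34348 genes. The authors deposited RPKM, a unit read from the steps between values since no header names it. Per the submitters' processing notes FastQC, TopHat2 2.1.1, featureCounts and Cufflinks 2.2.1 were used, with no role or order given. Genome build, annotation and use of strand in counting: not given in the sources used here, although the kit named in the labels marks strand. Whole reads were recovered from the value steps of 34307 of 34307 genes above 0 (tolerance 0.02 reads), and 41 genes were at 0 everywhere. Intervals of reads cover counting error only.

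log2(RPKM + 1) of the 26706 genes whose mean reached 1 RPKM in any group was fitted by limma 3.58.1 (trend, R 4.3.3) with genotype as the factor, after the steps had been tested on simulated data. This scale understates the change of low genes. A call is a Benjamini-Hochberg adjusted p under 0.05. Ratios were tested by exact permutation (scipy 1.17.1). Groups and replicate numbers came from the labels, which do not say whether replicates are separate plants, so p-values measure the spread between these libraries. The named genes were fie1, fie2, nkd1, nkd2, the matched list members, the 5 named genes with the highest r and the tested neighbours. They and the lists were chosen with earlier results of these data known. RefSeq entries were found for 15236 of 34348 identifiers. Alternatives covered pseudocount, filter, scaling, voom, replicate block, groups in the fit and libraries left out.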

Additional observations from a re-analysis of the deposited data

Results flagged for a closer look

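Of 33 combinations of group and gene or ratio looked at in groups of 4 libraries, 1 held a library far from the others, and chance flags about 1 in 20. The nfc101 level in nkd2-Ds replicate 2 was 26.7 RPKM, while the other libraries of that group lay between 24.92 and 25.01 RPKM. The fie1 and fie2 levels held no such library in any group.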

How the results depend on the processing

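With total-reads scaling, fie1 was at 0.46 in nkd1-Ds and 0.027 in nkd2-Ds against WT and at -0.44 between the mutants (adjusted p = 0.00782, limma), and fie2 was at 0.16 in nkd1-Ds against WT and, with its direction turned and a call gained, at -0.29 between the mutants (adjusted p = 0.0463, limma). It called 4527 genes in nkd2-Ds against 6823 as reported, and 89.2% of calls in nkd1-Ds and 72.4% in nkd2-Ds were higher, against 47.6% and 46.9%; between the mutants this was 10.1% against 51.6%. It called 8 genes of Polycomb repressive complex 2 in nkd1-Ds and 0 in nkd2-Ds. With reads outside zein genes, fie1 was at 0.092 and fie2 at -0.16 in nkd1-Ds, fie2 was at -0.032 between the mutants, and 65.3% and 64.95% of calls against WT, and 41.0% between the mutants, were higher. fie2 in nkd2-Ds was called with quantile normalization (-0.29) and voom on recovered reads (-0.34), which called 2 and 3 of the complex.

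Leaving out 1 library at a time, fie2 against WT ranged from -0.34 to -0.24 in nkd1-Ds, called in 7 of 8, and from -0.33 to -0.19 in nkd2-Ds, called in 2 of 8. fie1 between the mutants ranged from -0.11 to 0.005, fie2 from -0.039 to 0.10, and their log2 ratio from -0.19 to 0.05. The complex had 0 to 3 calls in nkd2-Ds. The cause of these changes was not tested.

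Same-numbered replicates did not deviate together (r from -0.28 to 0.13, 1 of 12 pairs over 0.1). The values therefore showed no pairing by number, but they cannot exclude that same-numbered libraries were handled together. With a replicate block, fie2 had an adjusted p of 0.0340 in nkd1-Ds and 0.0881 in nkd2-Ds (limma), and 14282, 6039 and 10365 genes were called in the 3 comparisons, against 14877, 6823 and 11157 without it. The pseudocount, the filter on low values and a fit of only the groups compared changed no call of fie1 or fie2. Counting error at 236 reads, the fewest for fie2, is 6.51% of the value.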
